A study of Mus musculus with 36 samples.

Results

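A set of 10 cartilage genes were followed in mesenchymal stem cells (MSCs) cultured from 4 mouse tissues. They were the transcription factor genes Sox5, Sox6 and Sox9 and the matrix genes Acan, Col2a1, Col9a1, Col10a1, Col11a1, Comp and Hapln1. They were chosen by name as chondrocyte factors and cartilage matrix, with no measured value in the rule, and they are 10 of the 24411 genes in the expression tables. All 10 had a row in every table. Of these, 8 passed the filter on low counts and were tested, whereas Acan and Col9a1 were too low to test.

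Cartilage is built by chondrocytes. Sox9 starts and maintains the chondrocyte programme, and Sox5 and Sox6 act beside it on the same matrix genes. The collagen fibril of cartilage contains type II collagen, with type XI collagen inside the fibril and type IX collagen on its surface. Aggrecan, the product of Acan, fills the space between fibrils and is held on hyaluronan by the link protein made from Hapln1. Type X collagen is laid down by hypertrophic chondrocytes next to forming bone, and COMP is a thrombospondin family protein of cartilage, tendon and ligament. MSCs can be driven towards chondrocytes in culture, and no such step is described for the cells sequenced here.

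The cells came from C57BL6/J mice aged 8 weeks, with no genetic change and no treatment of the mice described. Cells of every tissue were seeded on dishes coated with collagen I, with MesenPure and a Rock inhibitor in the medium. The groups were femoral bone marrow (fBM-MSCs), vertebral bone marrow (vBM-MSCs), adipose tissue (A-MSCs) and lung (P-MSCs), all grown in MesenCult medium for at most 3 passages. Bone was crushed to obtain the marrow cells, whereas fat and lung were digested with collagenase, so in bone marrow against non-bone marrow, tissue and isolation method cannot be told apart. RNA-seq was available here for 3 libraries each of fBM-MSCs, A-MSCs and P-MSCs and for 2 of vBM-MSCs. ATAC-seq, which maps open chromatin, was available as 1 peak list per tissue pooled over its samples, without replicate error. All tissues were taken from the same mice, so libraries of different tissues share animals, but the sources used here do not say which. The p-values therefore measure the spread between these libraries, with no term for the mouse.

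The libraries held 19569650 to 40517739 expected counts. All 9 genes of an MSC marker list were tested, and their summed level was 1095 to 2521 TPM (transcript abundance scaled for transcript length and library size) across the libraries, with 5 higher and 2 lower in bone marrow MSCs. Markers of bone-forming osteoblasts were far from even: their summed level was 27804 to 90324 TPM in fBM-MSCs, 2329 to 10606 TPM in vBM-MSCs, 927 to 1128 TPM in A-MSCs and 722 to 807 TPM in P-MSCs, with 8 of 9 tested markers higher in bone marrow, where 24.8% of all tested genes were higher and 22.4% lower. Spp1 alone made up 26353 to 84015 TPM of the osteoblast sum in fBM-MSCs and 1562 and 9037 TPM in vBM-MSCs. In A-MSCs and P-MSCs that sum was nearly all Col1a1 (501 to 775 TPM) and Spp1 (160 to 384 TPM). All 8 proliferation genes were lower in bone marrow MSCs. Markers of osteoclasts gave 2 higher of 4 tested, of macrophages 2 higher and 1 lower of 5, of adipocytes 3 higher and 1 lower of 5, and of muscle and pericytes 2 higher and 3 lower of 5. Lower in bone marrow were 3 of 5 endothelial, 3 of 3 epithelial and 4 of 7 mesothelial markers. Of 3 markers that MSCs should lack, 1 was tested, Cd34, which was higher in bone marrow (7.33 to 79.2 TPM against 0.91 to 5.15 TPM). The part of these differences in the results below was not tested. In such bulk samples, fewer cells of a type and less RNA per cell cannot be told apart.

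Sox9, the main regulator of the chondrocyte programme, was expressed in all 4 tissues, and P-MSCs had the lowest level. The gene lies at chr11:112782210-112787757 on the plus strand of GRCm38 and has 3 exons. Sox9 stood at 9.45, 7.69 and 6.44 TPM in fBM-MSCs, at 11.58 and 12.34 TPM in vBM-MSCs, at 8.12, 9.49 and 10.84 TPM in A-MSCs, and at 2.87, 1.53 and 2.27 TPM in P-MSCs. Every P-MSC library lay below every other library, both vBM-MSC libraries lay above all others, and A-MSCs overlapped fBM-MSCs. Against P-MSCs the log2 difference was 1.94 ± 0.24 (SE) in fBM-MSCs (edgeR adjusted p = 5.88e-05), 2.5 ± 0.26 for the vertebral libraries (adjusted p = 2.69e-05) and 2.28 ± 0.24 in A-MSCs (adjusted p = 7.99e-05). The order of the means was vBM-MSCs, A-MSCs, fBM-MSCs and P-MSCs. The first neighbours in that order differed by 0.22 ± 0.25 (95% interval −0.33 to 0.77, adjusted p = 0.566), and fBM-MSCs against A-MSCs by −0.34 ± 0.23 (interval −0.84 to 0.16, adjusted p = 0.250). Bone marrow MSCs together were above the other tissues by 1.08 ± 0.17 (adjusted p = 0.000335), a mean that combined the low P-MSCs with A-MSCs that did not pass the test against either marrow tissue.

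Sox5 and Sox6, the partners of Sox9 on cartilage enhancers, were close to the detection limit. Sox5 (chr6:143828425-144209568, minus strand) reached 0.25, 0.14 and 1.29 TPM in fBM-MSCs and 0.08 and 0.40 TPM in vBM-MSCs. It stood at 0.19, 0.04 and 0.19 TPM in A-MSCs and at 0.03, 0.03 and 0.04 TPM in P-MSCs. Only replicate 3 of fBM-MSCs was above 1 TPM, with 239 counts, and bone marrow overlapped A-MSCs. The fitted difference of bone marrow against non-bone marrow was 2.44 ± 0.72 (adjusted p = 0.0153). The call was lost without fBM-MSC replicate 3 (1.67, adjusted p = 0.0588) and without vBM-MSC replicate 2 (1.69, adjusted p = 0.103), and limma on log2(TPM + 1) did not make it (adjusted p = 0.146). Among pairs, Sox5 passed only between fBM-MSCs and P-MSCs, by 4.23 ± 1.06 (adjusted p = 0.00669), and limma on log2(TPM + 1) did not make this call either (adjusted p = 0.0747). Without fBM-MSC replicate 3 the difference was 2.70 (adjusted p = 0.0429).

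Sox6 (chr7:115470872-116038744, minus strand) was below 1 TPM in every library. It had 0.11, 0.19 and 0.31 TPM in fBM-MSCs, 0 and 0.22 TPM in vBM-MSCs, 0.03, 0.15 and 0 TPM in A-MSCs, and 0.12, 0.05 and 0.02 TPM in P-MSCs. All 4 tissues overlapped. No comparison passed the test, and the difference of bone marrow against non-bone marrow was 1.26 ± 1.04 (95% interval −1.03 to 3.55, adjusted p = 0.346). It was −2.44 without vBM-MSC replicate 2, the vertebral library that held all 47 Sox6 counts of its tissue.

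Col2a1, which encodes the chain of type II collagen, was found in every bone marrow library and in no adipose library. The gene lies at chr15:97975602-98004724 on the minus strand. It had 3.40, 0.43 and 4.41 TPM in fBM-MSCs, 4.92 and 75.08 TPM in vBM-MSCs, 0 TPM in all 3 A-MSC libraries, and 4.21, 0 and 0 TPM in P-MSCs. The vertebral libraries were far apart, with 480 and 8856 counts. Replicate 1 of P-MSCs, with 584 counts, was as high as the femoral libraries. The fitted log2 difference of bone marrow against non-bone marrow was 8.06 ± 2.02 (adjusted p = 0.00867). Because A-MSCs had no counts, that fit is no bound, and against a floor of 3 counts over the A-MSC libraries Col2a1 was at least 346-fold higher in fBM-MSCs and at least 5156-fold higher in vBM-MSCs. The bounds were 193-fold without fBM-MSC replicate 3 and 581-fold without vBM-MSC replicate 2. Over all libraries the pooled level was 65.9 CPM (counts scaled for library size only) in bone marrow and 2.71 CPM elsewhere, a ratio of 24.3. It rested on single libraries: without vBM-MSC replicate 2 it was 4.11, and without P-MSC replicate 1 no non-bone marrow count was left. The fitted difference was 6.64 without vBM-MSC replicate 2 (adjusted p = 0.0342), 13.15 without P-MSC replicate 1 (adjusted p = 0.00128) and 11.70 without both (adjusted p = 0.00105).

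The tables also showed which form of Col2a1 was present. RSEM gives each gene the length of its transcripts weighted by their estimated abundance, and Col2a1 has transcripts of 5133 and 4929 bases that differ by 1 exon of 204 bases, exon 2 of the longer form. This exon codes for the cysteine-rich domain of the propeptide. The longer form is known from chondrocyte progenitors and some non-cartilage tissues, and the shorter form from mature chondrocytes. The exon, at chr15:98000403-98000606 on GRCm38, is shown in capitals between 20 flanking bases on each side, read on the gene's strand, because the estimated shares below refer to it.
Col2a1 exon 2: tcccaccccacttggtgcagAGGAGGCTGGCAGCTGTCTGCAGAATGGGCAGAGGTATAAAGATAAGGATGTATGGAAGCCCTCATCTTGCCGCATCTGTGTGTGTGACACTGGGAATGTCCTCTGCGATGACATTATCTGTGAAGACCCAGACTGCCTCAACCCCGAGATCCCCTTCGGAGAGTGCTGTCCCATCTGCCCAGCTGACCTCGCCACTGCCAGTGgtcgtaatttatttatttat
The estimated share of transcripts with the exon was 100% in all 3 fBM-MSC libraries, from 226, 47 and 570 counts. It was 35.5% and 37.3% in vBM-MSCs, from 480 and 8856 counts, and 76.0% in P-MSC replicate 1. The femoral and vertebral libraries did not overlap, with a mean of 36.4% ± 1.3 (SD, n = 2) in the latter. An exact permutation test over these 3 and 2 libraries has 10 divisions and gave a two-sided p of 0.2, with the one-sided p doubled. That is the smallest this rule can give, so the design could not pass 0.05 and the test adds nothing to the lack of overlap. The estimate rests on the reads that cover this exon or its junctions, whose number is not given, so its counting error is unknown.

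**Figure D1:**
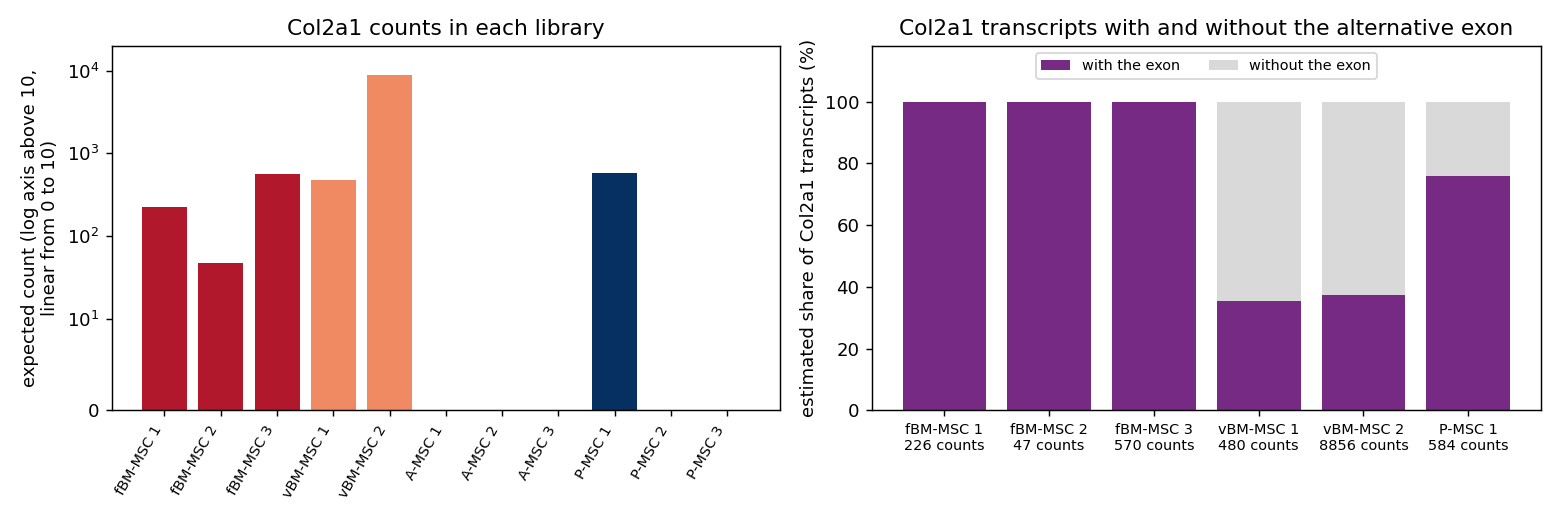
Left, Col2a1 expected counts in each RNA-seq library on an axis that is linear from 0 to 10 and logarithmic above, with 8856 counts in vBM-MSC replicate 2 and 584 in P-MSC replicate 1. Right, the estimated percentage of Col2a1 transcripts with the 204-base exon in the 6 libraries that had counts, at 100% in fBM-MSCs and on average 36.4% in vBM-MSCs.

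Col11a1, a chain of type XI collagen that sits inside the type II fibril, was expressed in all 4 tissues, most in vBM-MSCs and least in A-MSCs. The gene lies at chr3:114030540-114220756 on the plus strand. It had 1.99, 1.74 and 4.46 TPM in fBM-MSCs, 6.96 and 10.52 TPM in vBM-MSCs, 1.23, 1.51 and 0.90 TPM in A-MSCs, and 4.55, 5.08 and 4.0 TPM in P-MSCs. The vertebral libraries lay above all others and the adipose libraries below all others, and P-MSCs overlapped fBM-MSCs through femoral replicate 3. The order was vBM-MSCs, P-MSCs, fBM-MSCs and A-MSCs. The step from vBM-MSCs to P-MSCs was 1.01 ± 0.35 (adjusted p = 0.0407), that from P-MSCs to fBM-MSCs did not pass (fBM-MSCs minus P-MSCs −0.60 ± 0.32, interval −1.31 to 0.11, adjusted p = 0.147), and that from fBM-MSCs to A-MSCs was 1.11 ± 0.33 (adjusted p = 0.0197). P-MSCs exceeded A-MSCs, with a fitted A-MSC minus P-MSC difference of −1.71 ± 0.33 (adjusted p = 0.00306). Col11a1 was also the single gene of the 10 that passed between the marrow tissues, at −1.61 ± 0.36 for fBM-MSCs minus vBM-MSCs (adjusted p = 0.0139). That call was lost without vBM-MSC replicate 2 (−1.39, adjusted p = 0.0553) and in a model of these tissues alone (−1.62, adjusted p = 0.10). The step to P-MSCs was lost without any 1 of the vertebral or lung libraries or A-MSC replicate 1 (adjusted p from 0.0544 to 0.196), and the step from fBM-MSCs to A-MSCs without fBM-MSC replicate 3 (0.55), A-MSC replicate 1 (1.10) or A-MSC replicate 3 (0.95). The former was also lost with limma on log2(TPM + 0.1) (adjusted p = 0.0856), and the latter with limma on log2(TPM + 1) (adjusted p = 0.0519) and in a model of its pair of tissues alone (adjusted p = 0.0576).

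Type IX collagen, which coats the type II fibril, was essentially undetected. Col9a1 (chr1:24177610-24252738, plus strand) had 0 counts in 10 of 11 libraries and 12 counts, or 0.11 TPM, in P-MSC replicate 1. The weighted length there was 3888 bases, that of the longer of its 3097 and 3888 base transcripts, which is the form known from cartilage. Its partner chains were also below 1 TPM, with at most 0.65 TPM for Col9a2 and 0.35 TPM for Col9a3, both in vBM-MSC replicate 2.

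Col10a1, the collagen of hypertrophic cartilage, separated bone marrow MSCs from the others completely. The gene lies at chr10:34389981-34397085 on the plus strand, inside an intron of Nt5dc1. It had 2.27, 1.35 and 7.75 TPM in fBM-MSCs and 4.51 and 13.81 TPM in vBM-MSCs. In A-MSCs it had 0, 0.05 and 0.05 TPM and in P-MSCs 0.02, 0.13 and 0.11 TPM, from 8 and 18 counts in all. No A-MSC or P-MSC library reached 1 CPM, so Col10a1 passed the filter on low counts through bone marrow alone. Every bone marrow library lay above every other library, and 10.4% of all tested genes showed that pattern. The difference was 6.67 ± 0.67 (adjusted p = 1.19e-05), and both marrow tissues passed against both other tissues, by 5.59 to 7.76 on the log2 scale. The marrow tissues themselves differed by −1.17 ± 0.73 (interval −2.76 to 0.42, adjusted p = 0.323) and A-MSCs against P-MSCs by −1.0 ± 1.12 (interval −3.46 to 1.46, adjusted p = 0.533).

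Comp was the other gene whose groups did not overlap, and it had the highest TPM of the 10 genes in every bone marrow library except fBM-MSC replicate 2, where Sox9 was level with it. In A-MSCs and P-MSCs it was below Sox9 in every library. The gene (chr8:70373548-70382066, plus strand) had 36.81, 7.65 and 88.11 TPM in fBM-MSCs and 109.17 and 97.55 TPM in vBM-MSCs. It had 0, 0 and 0.12 TPM in A-MSCs and 0.87, 0 and 0 TPM in P-MSCs. The lowest marrow library, fBM-MSC replicate 2, was still well above P-MSC replicate 1, the highest of the others. The femoral libraries spread widely and the vertebral ones lay close together. Bone marrow exceeded non-bone marrow by 9.16 ± 0.93 on the log2 scale (adjusted p = 1.33e-05), and the pooled levels were 107 and 0.283 CPM. P-MSC replicate 1 held 54 of the 61 non-bone marrow counts, and without it the latter level was 0.0401 CPM and the difference 12.60. Without A-MSC replicate 3, which held the other 7, the difference was 11.30. Both fits left a tissue with no counts, so neither is a bound. The marrow tissues differed by −1.17 ± 0.87 (interval −3.09 to 0.74, adjusted p = 0.417).

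Aggrecan and its link protein were uneven. Acan (chr7:79053226-79115099, plus strand), the core protein of the main cartilage proteoglycan, had counts in only 3 libraries: 14 in fBM-MSC replicate 3, 24 in vBM-MSC replicate 2 and 12 in P-MSC replicate 1. None exceeded 0.14 TPM, and Acan shares exon sequence with the gene Gm26633, whose reads cannot be told apart in unstranded libraries. Hapln1 (chr13:89540636-89611832, plus strand), which locks aggrecan onto hyaluronan, had 0.11, 0.66 and 1.71 TPM in fBM-MSCs and 0.87 and 1.53 TPM in vBM-MSCs. It was 0 in all A-MSC libraries and 0.12, 0 and 0 TPM in P-MSCs, so the groups overlapped only through fBM-MSC replicate 1 and P-MSC replicate 1. The difference of bone marrow against non-bone marrow was 7.20 ± 1.34 (adjusted p = 0.00171), a fit that is no bound, since A-MSCs had no counts. Against the floor of 3 counts in A-MSCs, Hapln1 was at least 122-fold higher in fBM-MSCs (55.2-fold without replicate 3) and at least 148-fold higher in vBM-MSCs. Without P-MSC replicate 1, which held all 17 non-bone marrow counts, the fitted difference was 9.78. Against P-MSCs the differences were 4.35 ± 1.43 in fBM-MSCs (adjusted p = 0.0310) and 4.82 ± 1.5 in vBM-MSCs (adjusted p = 0.0303). Each was lost without P-MSC replicate 2 or 3, the former also without fBM-MSC replicate 3 and the latter without either vertebral library (adjusted p from 0.0561 to 0.0934). DESeq2 called neither (adjusted p = 0.0639 and 0.0770). Without P-MSC replicate 1 the differences against P-MSCs were 9.54 and 10.01. With no non-bone marrow counts left, neither these nor the 9.78 above are bounds.

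**Figure D2:**
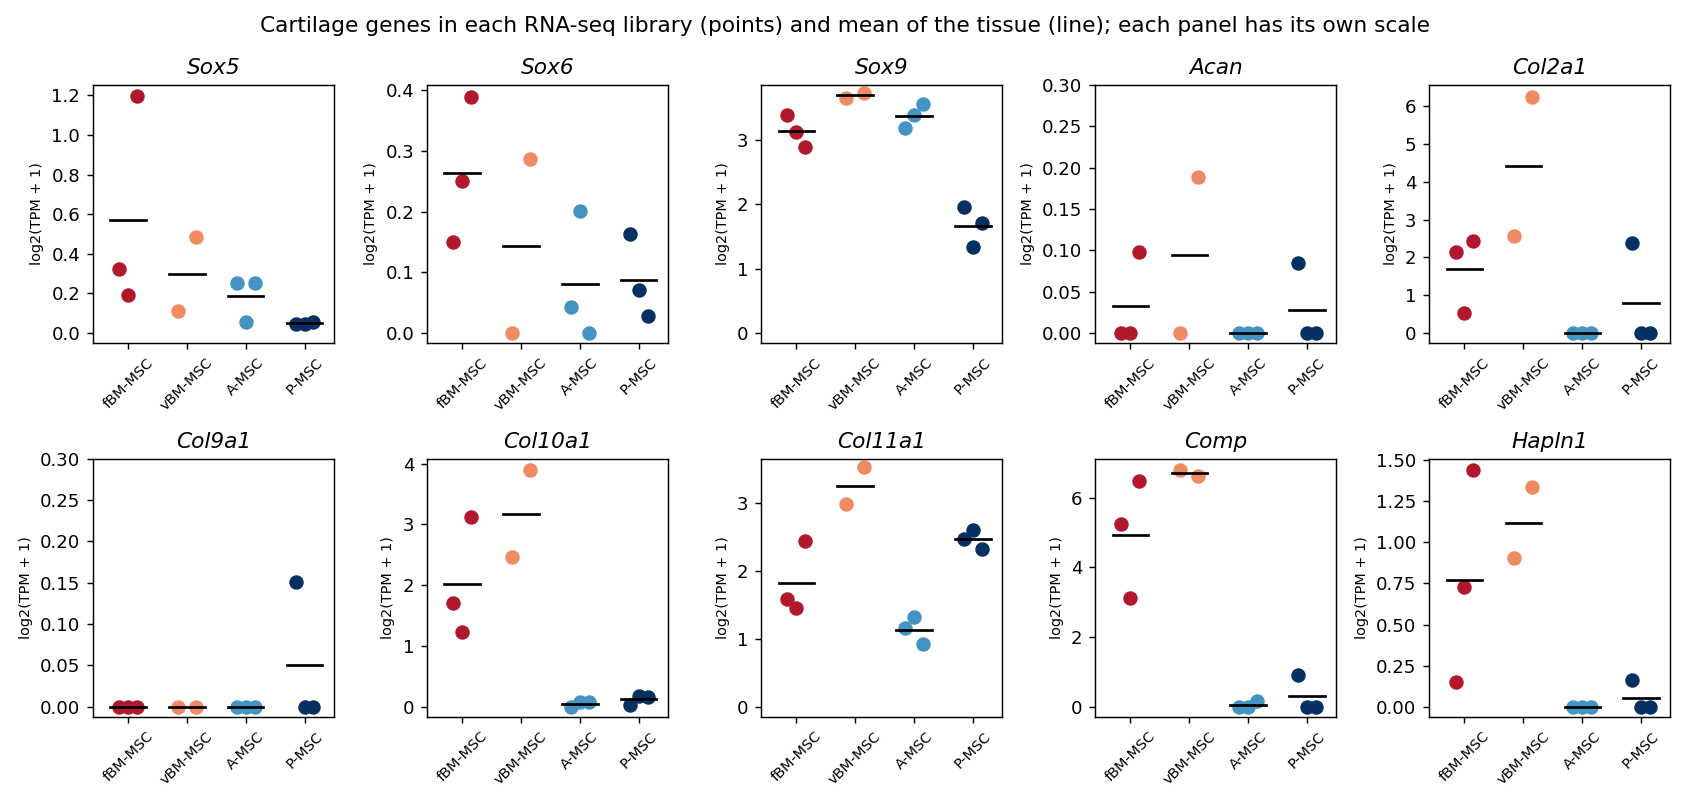
Level of each of the 10 genes as log2(TPM + 1) in each of the 11 RNA-seq libraries (points, coloured by tissue), with the mean of each tissue as a line, each panel on its own scale. Comp and Col10a1 are above all other libraries in every bone marrow library, Sox9 is lowest in the 3 P-MSC libraries, and Col9a1 is above 0 in 1 library.

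Over the tested genes, 7 of 8 differed among the 4 tissues, where 60.6% of all tested genes did. In bone marrow against non-bone marrow, 7 of 8 were higher in bone marrow and none was lower, against 47.2% called, 24.8% higher and 22.4% lower over all tested genes. Of the 8, however, 6 passed the filter on low counts through their bone marrow libraries, with fewer than 2 other libraries at 1 CPM: Sox5, Sox6, Col2a1, Col10a1, Comp and Hapln1. The filter thus favoured that direction for these genes, in the single tests above as in the count, which is a description only. The count was 6 of 8 without vBM-MSC replicate 2 and P-MSC replicate 1, the call of Sox5 being lost.

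Among pairs of tissues, 5 of 8 genes were higher in fBM-MSCs than in A-MSCs and none lower, where 40.9% of all tested genes were called, 20.6% higher and 20.3% lower. Against P-MSCs, 5 were higher in fBM-MSCs and none lower (47.7% called, 24.7% higher and 23.0% lower). In vBM-MSCs 5 were higher than in A-MSCs (25.6% called, 13.2% higher and 12.4% lower) and 5 higher than in P-MSCs (38.7% called, 21.0% higher and 17.7% lower), and none was lower. The 6 genes that passed the filter on low counts through bone marrow enter these 4 comparisons as well, so these counts too are descriptions only. Col10a1, Comp and Hapln1 passed in all 4 of these comparisons, though the Hapln1 calls against P-MSCs were lost in some alternatives. Col2a1 passed only against A-MSCs, at an adjusted p of 0.0405 for fBM-MSCs and 0.0134 for vBM-MSCs. Its femoral call was lost without any 1 A-MSC library or without fBM-MSC replicate 1 or 3 (adjusted p from 0.0670 to 0.0900) and with limma on log2(TPM + 1) (adjusted p = 0.135), and its vertebral call without vBM-MSC replicate 2 (adjusted p = 0.0577). Between A-MSCs and P-MSCs 2 of 8 passed, where 30.9% of all tested genes did: Sox9 was higher in A-MSCs (16.0% of all) and Col11a1 in P-MSCs (14.9%). Between the marrow tissues 1 of 8 passed, Col11a1, which was lower in fBM-MSCs, where 12.8% of all tested genes passed, 5.24% higher and 7.56% lower. These comparisons share libraries.

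**Figure D3:**
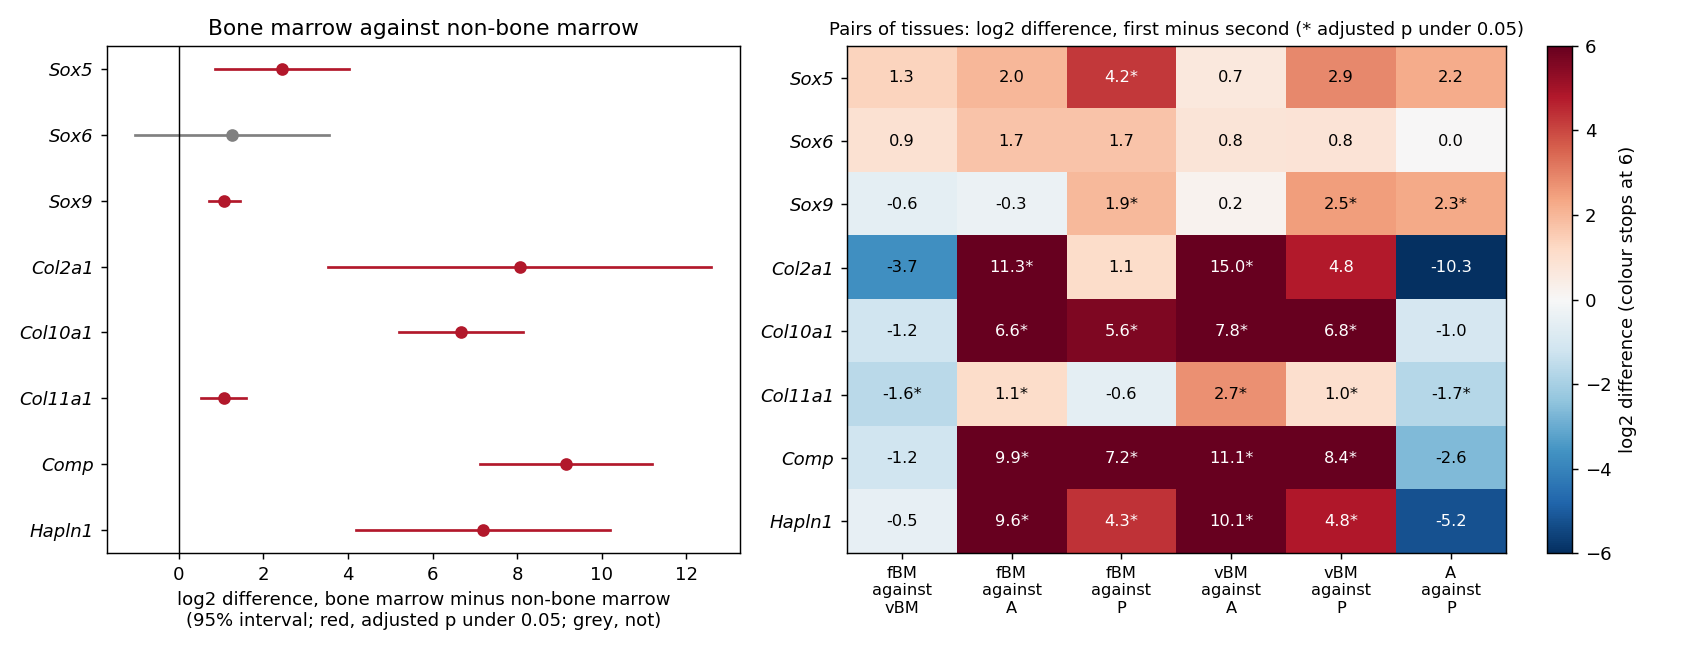
Left, fitted log2 difference of bone marrow minus non-bone marrow MSCs for the 8 tested genes with its 95% interval, red where the adjusted p was under 0.05. Right, the same for the 6 pairs of tissues with an asterisk at an adjusted p under 0.05. Col10a1, Comp and Hapln1 carry an asterisk in all 4 marrow against non-marrow pairs, and Sox9 in the 3 pairs with P-MSCs.

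Single libraries held cartilage matrix genes that the other libraries of their tissue lacked. After the values were seen, genes with at least 10 counts in a library and none in the others of its tissue were counted. P-MSC replicate 1 had 5 of the 10 genes in that class, Acan, Col2a1, Col9a1, Comp and Hapln1, where 0.381% of all genes in the tables (93 of 24411) were. It was the only library with counts for all 10 genes and also the deepest, with 40517739 expected counts. Acan and Col9a1 had 12 counts each there. The remaining 2 P-MSC libraries had none of these 5. In fBM-MSC replicate 3 the class held Acan, and 0.619% of all genes. In vBM-MSC replicate 2, with a single other library in its tissue, it held Sox6 and Acan, and 2.26% of all genes. This library was also the only one of the 11 with Chad (2.61 TPM), Lect1 (4.2 TPM) and Scrg1 (1.08 TPM), which encode chondroadherin, chondromodulin and a small protein of cartilage, each with 0 counts elsewhere. These were 3 of 20 further cartilage matrix genes, and 0.176% of all genes were seen in that library alone. The summed level of the 7 matrix genes was 11.8 to 106.5 TPM in fBM-MSCs, 126 and 199 TPM in vBM-MSCs, 1.07 to 1.56 TPM in A-MSCs, and 9.94, 5.21 and 4.11 TPM in P-MSCs, where Col11a1 made up nearly all of the last pair of values.

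Open chromatin was read from the pooled summits at a −log10 q of at least 7, the threshold of the study. Over the 4 tissues, 179 regions lay within 100 kb of the 10 genes, 48 of them inside the genes, counting summits at most 250 bases apart as 1 region. Of the 179 regions, 31.3% were found in 1 or both marrow tissues only, against 22.1% of all 103643 regions, and 21.2% in A-MSCs or P-MSCs only, against 25.4%. The shares carry no replicate error. By gene, Sox6 had the most regions (36), of which 17 were in marrow tissues only and 9 in all 4 tissues. Sox9 had 11, none in marrow only. Hapln1 had 10, of which 6 were in marrow only.

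A summit within 1 kb of an annotated start was present for 2 of the 10 genes in A-MSCs and for 5 in each of the other tissues. Over all 22153 genes the shares were 54.2% in A-MSCs and 52.2% to 53.3% in the others. They were 87.1% to 89.6% of the genes tested in RNA-seq, to which 8 of the 10 belong, and 14.5% to 15.9% of the rest. The 2 genes with a start site summit in A-MSCs were Sox6 and Sox9. Sox9 carried summits 93 and 563 bases before its start in all 4 tissues, P-MSCs with the lowest RNA level included, where the first had the highest fold enrichment of the 4 tissues (18.8 over background, against 10.3, 12.9 and 12.9 in fBM-MSCs, vBM-MSCs and A-MSCs). Sox5, Acan, Col9a1 and Comp had no summit within 1 kb of a start in any tissue. The nearest summits to Comp lay 1435 bases before and 1204 bases after its start and were present in all 4 tissues, although its RNA was near 0 in A-MSCs and P-MSCs.

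Col10a1 and Col11a1 had a start site summit in every tissue but A-MSCs, and their promoters are shown for that reason. The 250 bases before each start come from RefSeq on GRCm38 and run 5′ to 3′ on the gene's strand, with SOX motifs in capitals. The motifs searched were ACAATG and ACAAAG on both strands, and 24.7% of 31396 promoters of the same length hold at least 1.
Col10a1 promoter, chr10:34389731-34389980: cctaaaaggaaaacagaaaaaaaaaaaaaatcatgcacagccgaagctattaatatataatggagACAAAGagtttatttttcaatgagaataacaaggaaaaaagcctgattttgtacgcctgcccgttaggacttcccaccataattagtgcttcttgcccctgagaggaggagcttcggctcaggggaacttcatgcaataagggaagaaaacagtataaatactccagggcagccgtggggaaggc
Col11a1 promoter, chr3:114030290-114030539: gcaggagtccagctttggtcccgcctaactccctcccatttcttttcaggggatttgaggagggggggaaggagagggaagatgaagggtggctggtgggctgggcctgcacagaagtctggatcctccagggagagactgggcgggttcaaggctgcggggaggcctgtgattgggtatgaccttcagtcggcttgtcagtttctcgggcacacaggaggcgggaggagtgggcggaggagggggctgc
The Col10a1 summit lay 165 bases before the start, with an enrichment of 6.99-fold (fBM-MSCs), 5.52-fold (vBM-MSCs) and 7.36-fold (P-MSCs). No summit of any q was listed there in A-MSCs, and P-MSCs had the summit with 18 Col10a1 counts in all. The Col10a1 window holds 1 ACAAAG. The Col11a1 summit lay 71 bases before the start, with an enrichment of 5.89-fold (fBM-MSCs), 11.8-fold (vBM-MSCs) and 12.9-fold (P-MSCs). A-MSCs, the tissue with the lowest Col11a1 RNA, had a summit there of 5.15-fold at a −log10 q of 6.33, just under the threshold. Neither motif is in the Col11a1 window.

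Regions in the marrow tissues alone stood at an internal start of Sox6 and upstream of Hapln1, and vBM-MSCs alone had a region in an intron of Col11a1. They are shown because no other tissue passed the threshold there. The Sox6 window is the 250 bases before the start, on the gene's strand, and the others are the summit with 100 bases on each side.
Sox6 internal promoter, chr7:115824711-115824960, minus strand: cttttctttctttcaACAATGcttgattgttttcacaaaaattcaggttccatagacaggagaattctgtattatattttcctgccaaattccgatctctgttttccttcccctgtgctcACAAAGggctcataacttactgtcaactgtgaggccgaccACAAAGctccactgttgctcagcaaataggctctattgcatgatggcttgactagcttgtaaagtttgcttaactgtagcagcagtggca
Hapln1 upstream region, chr13:89521534-89521734, plus strand: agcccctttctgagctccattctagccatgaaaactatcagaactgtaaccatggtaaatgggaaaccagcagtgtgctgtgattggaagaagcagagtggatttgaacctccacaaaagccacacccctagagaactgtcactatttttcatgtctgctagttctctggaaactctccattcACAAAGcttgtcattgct
Col11a1 intron region, chr3:114082163-114082363, plus strand: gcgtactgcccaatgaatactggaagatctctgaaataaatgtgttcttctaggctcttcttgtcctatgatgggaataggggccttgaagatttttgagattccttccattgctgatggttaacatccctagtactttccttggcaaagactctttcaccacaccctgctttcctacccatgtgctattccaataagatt
The Sox6 summit lay 127 bases before this start, with 6.99-fold enrichment in fBM-MSCs and 7.73-fold in vBM-MSCs, and neither A-MSCs nor P-MSCs listed any summit there. A further summit 758 bases before the start was also in the marrow tissues only. The window holds 1 ACAATG and 2 ACAAAG. Another Sox6 start had a summit 927 bases before it in all 4 tissues, which is the one counted for A-MSCs above.

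The Hapln1 region lay 19002 bases before the start in intergenic DNA, with 14.3-fold enrichment in fBM-MSCs (−log10 q of 34.9) and 17.3-fold in vBM-MSCs (46.0). A-MSCs and P-MSCs listed weaker summits there, 3.68-fold and 4.78-fold at a −log10 q of 3.06 and 5.41. The window holds 1 ACAAAG. At the start itself, only fBM-MSCs had a summit, 108 bases before it and at the threshold (−log10 q of 7.14). The Col11a1 region lay 51723 bases after the start, with 13.6-fold enrichment in vBM-MSCs, the tissue with the highest Col11a1 RNA, and no summit of any q in the other tissues. Neither motif is in its window.

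The Col2a1 start had a summit 304 bases after it, in the first exon, in vBM-MSCs (5.89-fold) and P-MSCs (5.89-fold). A weaker summit was listed in fBM-MSCs (4.05-fold, −log10 q of 3.75) and none in A-MSCs. Intron summits of Col2a1 3327 and 11618 bases after the start passed in vBM-MSCs, A-MSCs and P-MSCs, but not in fBM-MSCs. In A-MSCs, which had no Col2a1 counts, their enrichment was 10.3-fold and 6.99-fold. Of the regions near Sox5 that passed in both marrow tissues and no other, the strongest lay 87820 bases before its nearest start, with 17.7-fold enrichment in fBM-MSCs and 8.46-fold in vBM-MSCs, against listed summits of 2.94-fold in A-MSCs and 3.68-fold in P-MSCs. Around all summits near the 10 genes, a SOX motif stood within 100 bases of 24.7% of 421 summits, against 22.1% of all 259238 summits.

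**Figure D4:**
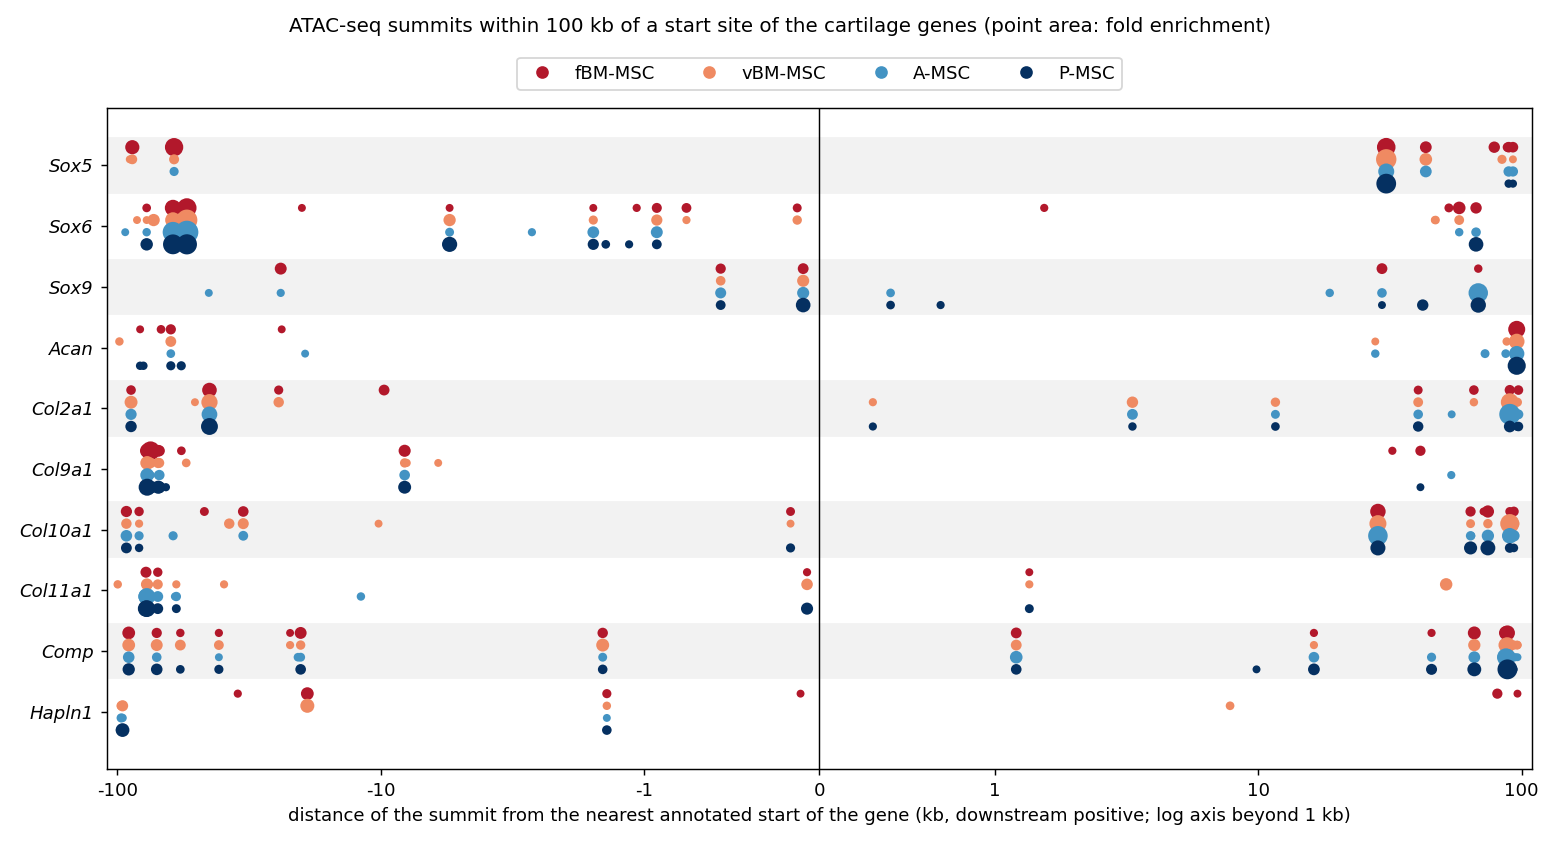
ATAC-seq summits at a −log10 q of at least 7 by distance from the nearest annotated start of each gene in kb (linear within 1 kb, logarithmic beyond), 1 row of points per tissue and point area in proportion to fold enrichment. Col10a1 and Col11a1 have start site points in every tissue except A-MSCs. The Hapln1 point 19002 bases upstream is in the marrow tissues only, whereas that 95640 bases upstream is in vBM-MSCs, A-MSCs and P-MSCs.

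Related genes were described through lists of names, in bone marrow against non-bone marrow MSCs. This comparison averages tissues, and over all tested genes 24.8% were higher and 22.4% lower. The filter on low counts favoured genes high in bone marrow in some lists: fewer than 2 non-bone marrow libraries reached 1 CPM for 5 of 7 tested genes of the further cartilage matrix, 7 of 14 hypertrophic genes, 7 of 9 osteoblast markers and 4 of 22 chondrocyte regulators, against 5.98% of all tested genes. The counts are therefore descriptions. Of the genes named below, Col5a3, Col5a1, Prg4, Susd5, Mmp13, Runx3, Pth1r, Bmp2, Fmod and S100b were higher in each marrow tissue than in each of A-MSCs and P-MSCs. In vBM-MSC replicate 1, however, Runx3 (0.04 TPM) and Bmp2 (1.02 TPM) did not exceed P-MSC replicate 2 (0.1 and 1.02 TPM). Of 7 partner collagen chains, the 3 that could be tested, Col5a3, Col5a1 and Col5a2, were higher in bone marrow, Col5a3 by 3.60 ± 0.28 (1.76 to 4.06 TPM against 0.15 to 0.40 TPM). Col5a2 passed against A-MSCs only. Of 20 further cartilage matrix genes, 7 were tested, 5 were higher and 1, Matn3, was lower. Prg4, the joint lubricin gene, ranged from 0.54 to 6.45 TPM in bone marrow and from 0 to 0.51 TPM elsewhere. Matn4, a matrilin gene, ranged from 0.36 to 3.01 TPM against 0 to 0.23 TPM, and Susd5 from 0.34 to 10.5 TPM against 0 to 0.06 TPM. Matn3 had a median of 0 TPM in bone marrow and 0.39 TPM elsewhere, with a difference of −4.53 ± 1.44, which is no bound since fBM-MSCs had no counts, and vBM-MSCs passed against neither A-MSCs nor P-MSCs.

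Relatives of aggrecan were mixed. In the list of hyaluronan genes and hyalectans, 2 of 6 tested genes passed, below the share of all tested genes called (47.2%). Bcan was higher in bone marrow (median 0.63 TPM against 0.035 TPM), among pairs only in fBM-MSCs against P-MSCs, and Vcan, the versican gene of soft connective tissue, was lower, with a difference of −1.46 ± 0.15 and medians of 1.24 against 6.36 TPM, from at most 5.20 TPM against 5.42 to 8.0 TPM. The call came from fBM-MSCs, at no more than 1.24 TPM, whereas vBM-MSCs, at 3.65 and 5.20 TPM, passed against neither A-MSCs (−0.43 ± 0.22, adjusted p = 0.178) nor P-MSCs (−0.50 ± 0.22, adjusted p = 0.0906). Vcan was above Acan in every library. Of 7 tested genes on the list of matrix-degrading enzymes and their inhibitors, 4 were higher in this averaged comparison: the enzyme genes Mmp13, Mmp3 and Adamts5 and the inhibitor gene Timp3, by 1.55 ± 0.15. Adamts5, an aggrecanase gene, was lower in fBM-MSCs than in A-MSCs (−1.30 ± 0.38, adjusted p = 0.0174) and than in vBM-MSCs (−1.99 ± 0.41, adjusted p = 0.0104). Among pairs with A-MSCs and P-MSCs, Mmp3 passed only in vBM-MSCs, and Timp3 did not pass in fBM-MSCs against A-MSCs. Mmp13, the collagenase that cuts type II collagen, led them with 39.1 to 335.5 TPM against 1.05 to 13.6 TPM, its highest value being in vBM-MSC replicate 2.

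Among 12 other Sox genes, 4 were tested and 1 passed: Sox11 was lower in bone marrow, with a difference of −0.75 ± 0.16. This came from fBM-MSCs, at 0.64, 1.33 and 0.99 TPM, whereas vBM-MSCs had 3.31 and 4.2 TPM and A-MSCs and P-MSCs 2.57 to 3.84 TPM, and vBM-MSCs passed against neither. Sox4 was at 5.17 to 15.66 TPM and was not called in this comparison (−0.36 ± 0.17, adjusted p = 0.102). Its highest levels were those of P-MSCs, at 14.08 to 15.66 TPM, and each of the other tissues was lower, with log2 differences of −0.75 ± 0.22 for fBM-MSCs (adjusted p = 0.0160), −0.85 ± 0.25 for vBM-MSCs (adjusted p = 0.0209) and −0.89 ± 0.22 for A-MSCs (adjusted p = 0.0116). Chondrocyte regulators gave 17 higher and 1 lower of 22 tested. By pairs, 14 were higher and 2 lower in fBM-MSCs against A-MSCs and 17 and 1 against P-MSCs, whereas 7 and 2 were in vBM-MSCs against A-MSCs and 12 and 1 against P-MSCs. The 4 with the largest averaged differences were Runx3, the parathyroid hormone receptor gene Pth1r, Shox2 and Bmp2. Shox2 was a femoral gene here, with 17.1 to 27.1 TPM in fBM-MSCs, 0 and 1.1 TPM in vBM-MSCs and at most 0.66 TPM elsewhere, and vBM-MSCs passed against neither A-MSCs nor P-MSCs. Pth1r ranged from 2.15 to 62.5 TPM in bone marrow and from 0 to 1.0 TPM elsewhere. Genes of hypertrophic chondrocytes gave 11 higher and 1 lower of 14 tested, as in fBM-MSCs against each of A-MSCs and P-MSCs, with 7 and 9 higher and 1 lower in vBM-MSCs. They were led by Ibsp, Alpl, Sp7 and Panx3. These 4 are also made by osteoblasts, and Ibsp, Alpl and Sp7 stand on the osteoblast list too, whose levels are given above. Ibsp was highest in fBM-MSC replicate 3 (1010 TPM), the femoral library with the highest Sox5, Comp, Col10a1, Col11a1, Col2a1 and Hapln1. Sox9 went the other way, with its lowest femoral level there (6.44 TPM against 9.45 and 7.69 TPM).

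Tendon and ligament genes, which share Comp with cartilage, gave 5 higher of 6 tested in the averaged comparison. In fBM-MSCs, however, Dcn was lower than in A-MSCs (−2.78 ± 0.46) and Egr1 lower than in P-MSCs (−0.49 ± 0.15), and Prelp passed only against P-MSCs. Fmod, for fibromodulin, ranged from 52.8 to 460 TPM against 0.33 to 9.40 TPM, and Scx, the tendon transcription factor, from 1.39 to 30.4 TPM against 0 to 1.87 TPM. Scx and Mkx passed against A-MSCs and P-MSCs in fBM-MSCs only. Of the thrombospondins, to whose family COMP belongs, 2 of 3 tested were higher, Thbs2 by 2.18 ± 0.45 and Thbs1 by 0.27 ± 0.07. Thbs2 passed against P-MSCs (5.07 to 7.27 TPM) in both marrow tissues and against A-MSCs in neither, where its 26.6 to 50.2 TPM lay within the marrow range of 24.9 to 168 TPM. Thbs1 was higher in vBM-MSCs than in A-MSCs (0.80 ± 0.10) and P-MSCs (0.64 ± 0.10), whereas in fBM-MSCs it was lower than in P-MSCs (−0.27 ± 0.09, adjusted p = 0.0282). Of the Schwann cell and neural crest markers, in whose lineage other Sox factors act, 3 of 8 were at 0 in all libraries and 2 were tested, 1 passing in each direction. S100b, which chondrocytes also make, was higher in bone marrow (6.47 to 56.0 TPM against 0 to 0.66 TPM), and the myelin gene Mbp was lower (0 to 0.19 TPM against 1.07 to 2.38 TPM).

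**Figure D5:**
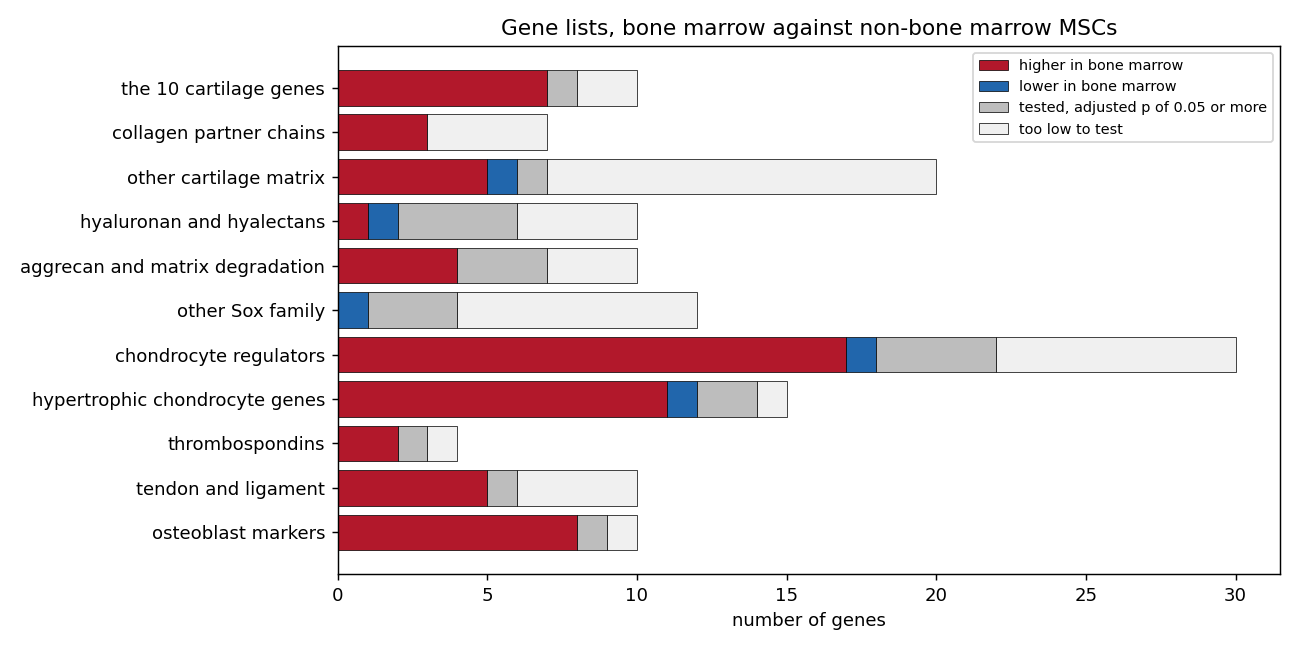
Number of genes in each list that were higher in bone marrow MSCs, lower, tested with an adjusted p of 0.05 or more, or too low to test. The 10 cartilage genes show 7 higher and none lower, chondrocyte regulators 17 and 1, and hyaluronan genes and hyalectans 1 and 1.

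The genes most like 4 of the 10 across the 11 libraries were named by Pearson's r on log2(TPM + 1), as a description over libraries that share tissues. For Sox9 they were Pdlim4 (r = 0.979), Hoxc6 (0.976) and Rnf181 (0.957). Pdlim4 and Hoxc6 were near 0 in P-MSCs, at means of 0.463 and 0.29 TPM. For Comp they were Pamr1 (0.983), Il1rn (0.978) and Tle2 (0.975), all low in A-MSCs and P-MSCs. For Col11a1 they were Cyp1a1 (0.948), Bgn (0.946) and Auts2 (0.943). Bgn, the gene of the proteoglycan biglycan, was at 1888 TPM in vBM-MSCs, 1416 TPM in P-MSCs, 1321 TPM in fBM-MSCs and 940 TPM in A-MSCs, the order of Col11a1. For Acan, with counts in 3 libraries, they were Clint1 (0.886), Smarca1 (0.881) and Zfat (0.874). Among the cartilage genes themselves, Col10a1 was most like Comp (r = 0.953) and Hapln1 (0.931), whereas Sox9 and Col11a1 had an r of −0.195.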

How the data were processed

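RNA-seq was analysed in 11 libraries and ATAC-seq as 1 peak list per tissue. vBM-MSC replicate 3 was not analysed here. Per the labels and the study's methods, the authors prepared unstranded Smart-seq2 libraries and ran RSEM with STAR on mm10. The deposited expected counts are RSEM estimates and are not normalized; they were rounded. The deposited TPM and FPKM values are RSEM's too, corrected for transcript length and depth. Libraries held 19569650 to 40517739 expected counts. For ATAC-seq the authors used Trim Galore, Bowtie, Picard and MACS2 without local background on pooled reads. Their lists give a fold ratio over background, a −log10 q-value and a score per summit, as deposited. Versions are not given in the sources used here.

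The 12509 genes that reached a CPM of 1 in 2 or more libraries entered the test of edgeR 4.0.16 (TMM, quasi-likelihood F test, two-sided) in 1 model of the 4 tissues, with p adjusted by Benjamini-Hochberg over all tested genes and called under 0.05. Bone marrow against non-bone marrow compared the mean of fBM-MSCs and vBM-MSCs with that of A-MSCs and P-MSCs. In simulated data with 200 changed genes, this comparison recovered 66.0% of changes of 2-fold, with 3.65% false among its calls, and 88.5% of changes of 4-fold, with 6.84% false. SE is the fitted difference over the root of F. Summits were placed on curated RefSeq transcripts of GRCm38.p6 on chromosomes 1 to 19, and 7 of the 10 genes matched the promoter table; Sox9, Comp and Col2a1 had no match. Alternatives used DESeq2 1.42.0, limma 3.58.1 and other filters. All 10 genes were named; other lists gave at most 4 genes each, those with the largest differences among the called, and the 3 most alike genes were named for Sox9, Acan, Comp and Col11a1. Genes named beyond that (Sox4, Col9a2, Col9a3, Chad, Lect1, Scrg1, Dcn, Egr1) were chosen after their values were seen. The genes and lists were chosen with earlier results of these data known.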

Additional observations from a re-analysis of the deposited data

How the results depend on the processing

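Of the recomputed counts and shares, 151 stayed within 1.5 times the value reported and 15 did not. Of the recomputed differences of single genes, 565 kept their direction and their side of the threshold, 42 lost the call and 2 turned. Sox6 in bone marrow against non-bone marrow turned to −2.44 without vBM-MSC replicate 2 and to −1.99 without this library and P-MSC replicate 1, an alternative chosen after the data were seen and it was called in neither; leaving out single libraries gave −2.44 to 2.31. In leave-one-out fits the number of genes called was 0 to 1 between fBM-MSCs and vBM-MSCs, 3 to 5 between fBM-MSCs and A-MSCs and 3 to 7 between vBM-MSCs and P-MSCs. Where vBM-MSCs kept 1 library, it was assumed to vary like the other tissues. Between fBM-MSCs and vBM-MSCs, 0 genes were called in a model of these tissues alone and without vBM-MSC replicate 2 and P-MSC replicate 1. Between fBM-MSCs and A-MSCs, limma on log2(TPM + 1) called 3. The 15 pairs of libraries with the same replicate number had correlated deviations of −0.03 to 0.12, 1 pair over 0.1, so the numbers were not taken to pair the samples. With the replicate number as a block, 7 of 8 genes were called in bone marrow against non-bone marrow, 4 in each of fBM-MSCs against A-MSCs, fBM-MSCs against P-MSCs and vBM-MSCs against P-MSCs, and the other counts did not change. The block lost Col2a1 in fBM-MSCs against A-MSCs (adjusted p = 0.0748), Hapln1 against P-MSCs in fBM-MSCs (adjusted p = 0.111) and vBM-MSCs (adjusted p = 0.0618), and Col11a1 in vBM-MSCs against P-MSCs (adjusted p = 0.0554), where 1 other gene was gained. The cause of these moves was not tested. By construction, the 17 pairs of gene and tissue with a start site summit became 8 at a −log10 q of at least 20, and the 421 summits within 100 kb became 149 at that threshold, 215 within 50 kb and 720 with all deposited summits. The 24.7% of summits with a SOX motif became 14.5% within 50 bases. Depth limits Sox5, Sox6, Acan and Col9a1, which had few counts in most libraries.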
